A study of Homo sapiens with 5 samples.

Results

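The genes described here are 10 neighbours on the long arm of chromosome 19: PAK4, SAMD4B, PAF1, MED29, SUPT5H, TIMM50, DYRK1B, FBL, PSMC4 and AKT2, in the order of the RefSeq gene table for GRCh38.p14. They were taken by name, out of 14894 genes retained on the array, with every probe set that carries 1 gene symbol. There are 23 such probe sets, and 21 of them rose above the level filter in at least 1 line. The genes were proposed because their levels in these same arrays stood apart between the lines. Their levels and differences are therefore given as a description, with no test.

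RNA levels came from 5 established human lines of pancreatic origin, with 1 array for each: HPDE, L3.6, PANC1, HPAF1 and SU86.86. The labels list no treatment, and they call all 5 lines pancreatic cancer lines. HPDE, however, is known as an immortalised line of pancreatic duct epithelium, while the rest are carcinoma lines. Each line is 1 culture on 1 array, so that no value for a line has a replicate error, and a value averages over all cells of the culture, so that the share of expressing cells and the RNA per cell cannot be told apart.

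The genes code for proteins of varied function. AKT2 is a serine/threonine kinase that acts below phosphoinositide 3-kinase in insulin and growth factor signalling, and PAK4 and DYRK1B are protein kinases of other families. PAF1, SUPT5H and MED29 belong to machinery that RNA polymerase II uses for initiation and elongation, while FBL, PSMC4 and TIMM50 serve ribosomal RNA modification, protein degradation and mitochondrial protein import. As background, this stretch is known to be gained or amplified in some pancreatic carcinomas, and AKT2, PAF1 and MED29 have each been studied there as candidate drivers. DNA copy number was not analysed here.

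The DNA just upstream of the genes shows how close some of them lie and what their start regions share. PAF1 and MED29 are read away from each other, and their annotated starts lie 272 bases apart. Their windows of 250 upstream bases overlap by 229 bases, so a single sequence stands for the pair. The windows below are those of this pair, of AKT2, of TIMM50, which had the widest range over the lines, and of DYRK1B, which had the narrowest. Each is from RefSeq, GRCh38.p14, ends at the base before the gene's start that lies furthest upstream, and is read along the gene's strand. Capitals mark CCAAT on either strand, where the reverse strand reads ATTGG.
PAF1 and MED29, read towards MED29 (chr19:39391128-39391377, plus strand): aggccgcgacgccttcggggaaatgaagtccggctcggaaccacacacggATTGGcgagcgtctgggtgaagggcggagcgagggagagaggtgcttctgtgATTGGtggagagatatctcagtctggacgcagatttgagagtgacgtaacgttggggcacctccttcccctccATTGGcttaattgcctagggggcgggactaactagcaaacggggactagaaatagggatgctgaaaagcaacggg
AKT2 (chr19:40285346-40285595, minus strand): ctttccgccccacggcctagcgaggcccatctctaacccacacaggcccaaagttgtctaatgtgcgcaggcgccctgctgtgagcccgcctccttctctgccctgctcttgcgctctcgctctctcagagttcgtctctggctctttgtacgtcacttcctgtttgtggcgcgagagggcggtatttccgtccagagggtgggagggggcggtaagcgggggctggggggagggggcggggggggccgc
TIMM50 (chr19:39480588-39480837, plus strand): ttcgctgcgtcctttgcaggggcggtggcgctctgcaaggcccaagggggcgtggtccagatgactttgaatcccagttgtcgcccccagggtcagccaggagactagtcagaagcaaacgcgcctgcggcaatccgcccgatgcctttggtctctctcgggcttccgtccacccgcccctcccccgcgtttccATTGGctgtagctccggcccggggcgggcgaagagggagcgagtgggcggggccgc
DYRK1B (chr19:39834163-39834412, minus strand): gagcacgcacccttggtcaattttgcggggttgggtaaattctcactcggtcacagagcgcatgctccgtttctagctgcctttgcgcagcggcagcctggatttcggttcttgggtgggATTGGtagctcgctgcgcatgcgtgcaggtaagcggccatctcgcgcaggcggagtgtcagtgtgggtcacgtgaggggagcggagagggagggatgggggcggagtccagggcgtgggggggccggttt
CCAAT stood in 7 of the 10 windows, against 33% of 27305 upstream windows of the same length, and AKT2, SUPT5H and PSMC4 had none. The pair PAF1 and MED29 shares its 3 matches. GGGCGG, on either strand, stood in 10 of 10 windows, against 42.2% of all windows. PAF1 and MED29 again share the same GGGCGG sites, so the 10 windows are not 10 separate cases. Between 57.2% (MED29) and 78.0% (SAMD4B) of the bases in the 10 windows were G or C. The share of all windows was not matched for this content. TGACGT on either strand stood in the windows of AKT2, PAF1 and MED29, against 7.42% of all, and the match of PAF1 and MED29 is the same site in their shared bases. CCGGAA stood in 2 windows (14.8% of all) and CACGTG in 1 (6.46% of all). These matches are letters in a window, not measured binding sites.

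PANC1 and SU86.86 had the highest levels of all 10 genes. PANC1 ranked first for 9 of them and SU86.86 for PAK4, and HPAF1 had the lowest level of 7. Over all retained genes PANC1 ranked first for 20.2%, PANC1 and SU86.86 together lay above the other 3 lines for 9.82%, and HPAF1 ranked last for 22.3%. These orders are part of what the genes were chosen on. Intensities below are the deposited linear values of the probe set with the highest mean. Levels are log2(intensity + 71.1), and a difference on that scale understates the fold of dim genes. Probe sets differ in brightness, so the values compare lines within a gene and not genes with each other.

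**Figure D1:**
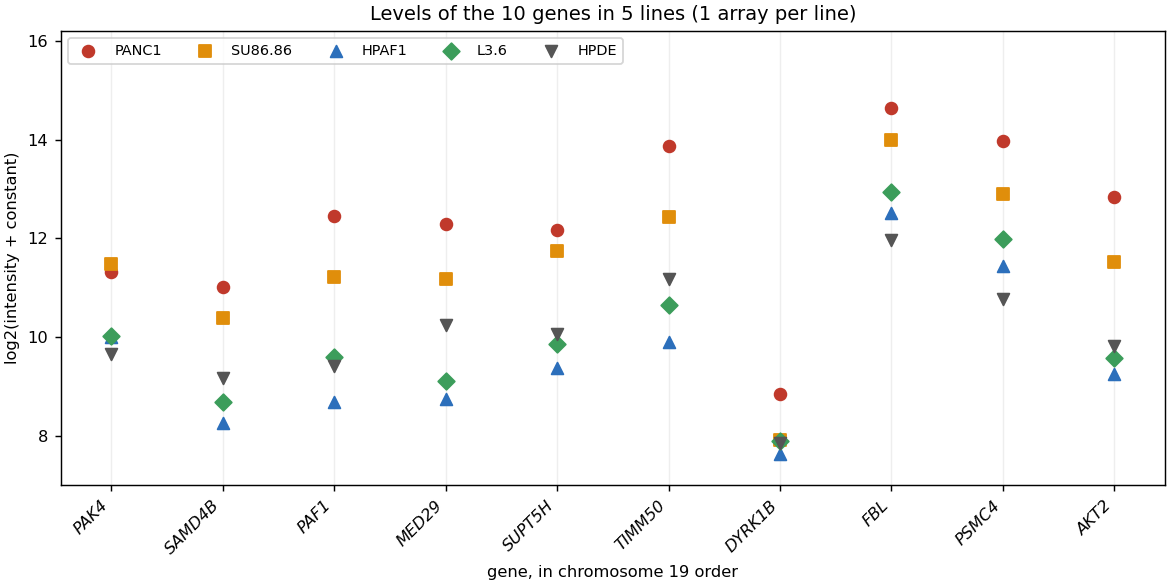
Level of each of the 10 genes in each line, as log2(intensity + constant), with genes in chromosome 19 order and 1 point per line. Red circles (PANC1) and orange squares (SU86.86) lie above the points of the other 3 lines for every gene, by only 0.03 for SU86.86 at DYRK1B.

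AKT2 read 7238 intensity units in PANC1 and 2895 in SU86.86. It read 825 in HPDE, 697 in L3.6 and 536 in HPAF1. PANC1 thus read 8.78 times and SU86.86 3.51 times the HPDE intensity, while the 3 lower lines lay within 0.56 log2 units of each other. On the log2 scale PANC1 lay 2.79 above the mean of the other 4 lines, and the step from SU86.86 down to the third line was 1.73.

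The transcription genes followed the same order at the top. PAF1, the subunit that gave the polymerase-associated PAF complex its name, read 5506 in PANC1, 2314 in SU86.86, 701 in L3.6, 615 in HPDE and 341 in HPAF1. MED29, a subunit of the Mediator coactivator, read 4988 in PANC1, 2244 in SU86.86, 1139 in HPDE, 481 in L3.6 and 358 in HPAF1. In this gene HPDE stood between the high and the low lines, and the step from SU86.86 to HPDE was 0.94. SUPT5H, the large subunit of the elongation factor DSIF, read 4557 in PANC1 and 3346 in SU86.86, and then 997 in HPDE, 853 in L3.6 and 592 in HPAF1. Its PANC1 and SU86.86 levels were 0.44 apart, against 1.23 for PAF1 and 1.13 for MED29.

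TIMM50, a receptor of the translocase that carries proteins across the inner mitochondrial membrane, had the widest range of the 10 genes. It read 14881 in PANC1, 5466 in SU86.86, 2253 in HPDE, 1536 in L3.6 and 877 in HPAF1, so that the highest line read 17.0 times the lowest. PSMC4, an ATPase of the proteasome's regulatory particle, read 16134 in PANC1, 7620 in SU86.86, 3970 in L3.6, 2708 in HPAF1 and 1685 in HPDE. FBL, the methyltransferase fibrillarin that acts on ribosomal RNA in the nucleolus, read 25612 in PANC1, 16207 in SU86.86, 7779 in L3.6, 5794 in HPAF1 and 3948 in HPDE. PSMC4, FBL and PAK4 were the genes whose lowest line was HPDE. In the other 7 HPAF1 was lowest.

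SAMD4B, an RNA-binding protein with a SAM domain, read 2007 in PANC1, 1262 in SU86.86, 503 in HPDE, 338 in L3.6 and 234 in HPAF1. PAK4, a kinase that acts downstream of the small GTPase CDC42, was the exception at the top, with 2800 in SU86.86 and 2493 in PANC1. It read 966 in L3.6, 958 in HPAF1 and 730 in HPDE. The PANC1 level of PAK4 minus that of SU86.86 was -0.16, close in size to the largest standard deviation between arrays on the spike-in controls, 0.14. DYRK1B, a dual-specificity kinase linked to quiescence, was dim and separated PANC1 alone. It read 390 in PANC1, 171 in SU86.86, 165 in L3.6, 162 in HPDE and 127 in HPAF1, the last below the level filter of 140.3. The readings of DYRK1B in SU86.86, L3.6 and HPDE differ by less than that spike-in spread, and PAK4 likewise did not separate L3.6 from HPAF1.

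Against the mean of the other 4 lines, all 10 genes were at least 2-fold higher in PANC1, where 5.38% of all retained genes were. The differences ran from 1.02 for DYRK1B to 2.83 for TIMM50, with a median of 2.06 against 0.00 over all genes, and 0 genes were lower (5.54% of all). In SU86.86, 7 of the 10 were at least 2-fold higher, where 5.29% of all genes were, with a median of 1.09 against -0.06 over all genes. FBL (0.97) and PSMC4 (0.86) fell just short, and DYRK1B was at -0.14, so that 0 were at least 2-fold lower (2.59% of all). PANC1 is among the lines in that mean. Without PANC1, 9 genes were at least 2-fold higher in SU86.86, with a median of 1.75. Without HPAF1 2 were, without L3.6 3 and without HPDE 4. The shares of all genes with a line left out are not given here. The other 3 lines had medians of -1.57 in HPAF1, -0.92 in L3.6 and -0.86 in HPDE, and 0 of the 10 genes at least 2-fold higher, where 6.96%, 2.99% and 6.48% of all genes were. At least 2-fold lower were 6 of the 10 in HPAF1 (6.3% of all genes), 4 in L3.6 (4.72%) and 4 in HPDE (5.57%). Since the genes were chosen on these contrasts, nothing is read from the shares. Leaving out PANC1 moved the median to -0.44 in L3.6 and -0.29 in HPDE, and leaving out HPAF1 moved that of L3.6 to -1.45.

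Set against HPDE alone, 9 genes were at least 2-fold higher in PANC1 (8.47% of all genes) and 8 in SU86.86 (8.44%), with medians of 2.40 and 1.70. L3.6 had 1, PSMC4, higher by 1.20 (6.55% of all genes), and HPAF1 had 0 (7.77%). Against HPDE, MED29 stood at -1.49 in HPAF1 and -1.13 in L3.6, and TIMM50 at -1.29 in HPAF1. These 4 differences share the HPDE array. PANC1 was at least 2-fold above SU86.86 for 5 of the 10 genes, AKT2, PAF1, MED29, PSMC4 and TIMM50, where 5.26% of all genes were. The 2-fold limit is set on the log2(intensity + 71.1) scale, on which DYRK1B stood at 0.93 above SU86.86 and 0.98 above HPDE. The widest gap between these lines was 1.43 for TIMM50.

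Several probe sets read the same gene for 5 of the 10 genes, and most kept the order of the lines. Of the 21 probe sets above the level filter, PANC1 read highest on 18, and PANC1 and SU86.86 both lay above the other lines on 19. At least 2-fold higher were 16 in PANC1 but only 9 in SU86.86. Over all retained genes, at 1 probe set per gene, these shares were 20.2%, 9.82%, 5.38% and 5.29%. Shares over all probe sets were not computed. For AKT2, the second brightest probe set read 2643 in PANC1, 1261 in SU86.86, 500 in HPDE, 158 in L3.6 and 154 in HPAF1. Those of the third and the fourth rank put PANC1 at 1887 and 1353, SU86.86 at 499 and 350, and no other line above 189. On these last AKT2 probe sets the SU86.86 difference was 0.51 and 0.42, under the 1.17 of the probe set used, while the PANC1 differences of 2.74 and 2.62 were near its 2.79. The dimmest AKT2 probe set above the filter gave 0.67 for PANC1 and -0.23 for SU86.86. On a further dim one SU86.86 (268) read above PANC1 (253).

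The 4 SAMD4B probe sets gave PANC1 differences between 0.93 and 1.97. The second TIMM50 probe set read 658 in PANC1, 350 in SU86.86 and at most 139 elsewhere. Both bright PAK4 probe sets had SU86.86 above PANC1. DYRK1B rests on 1 probe set, since the other gave a PANC1 difference of 0.29 and read lowest in SU86.86. PAF1, MED29, SUPT5H, FBL and PSMC4 have 1 probe set each, so no second reading of them exists here.

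**Figure D2:**
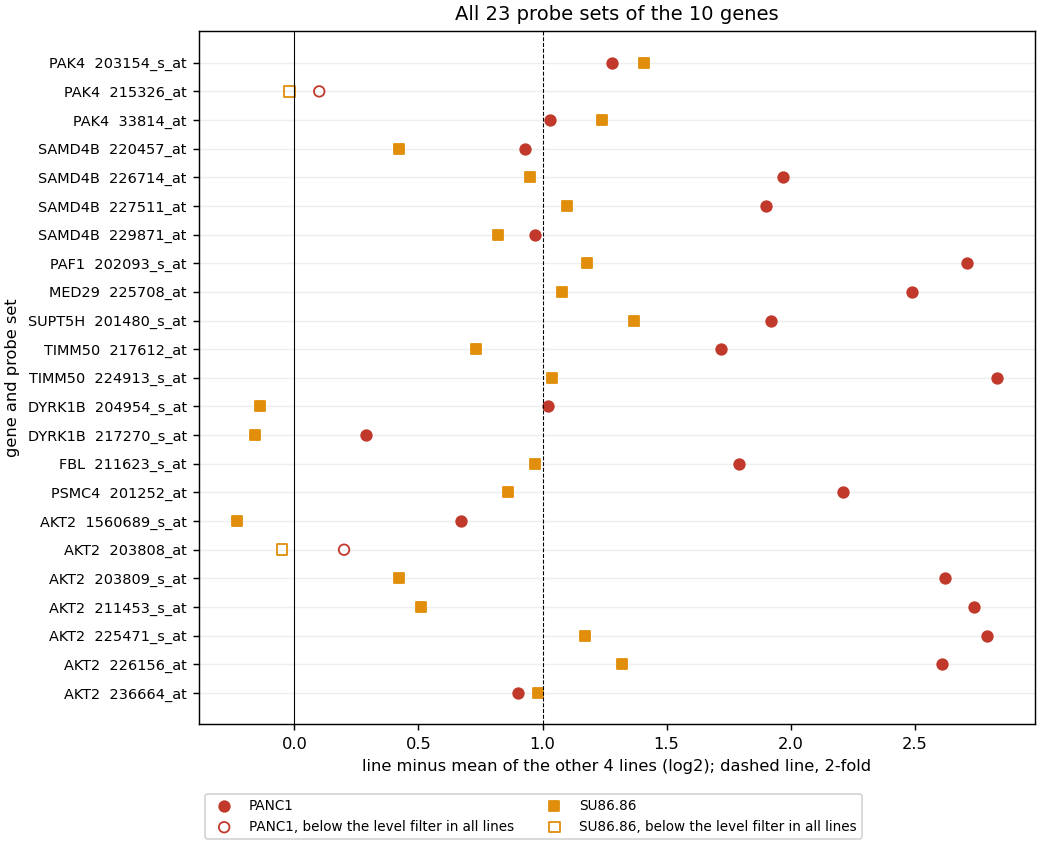
Difference of PANC1 (red circles) and SU86.86 (orange squares) from the mean of the other 4 lines, in log2 units, for each of the 23 probe sets. Open symbols mark the 2 probe sets below the level filter in all lines, and filled PANC1 symbols reach 2.83 for TIMM50 but 0.29 on the second DYRK1B probe set.

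The RefSeq table lists 65 genes from PAK4 to AKT2, 36 of them protein-coding. Besides the 10, 19 were retained on the array, and 3 more had probe sets only below the level filter. Of the 19, 7 were at least 2-fold higher in PANC1 (5.38% of all genes) and 1 in SU86.86 (5.29%, so that this count is at the background share). The medians were 0.76 and 0.03. ZNF546 and TTC9B, counted among the 7, and ZNF780B passed the level filter in PANC1 alone. They were retained through the line in which they read high, and the count and median are a description only. The highest in PANC1 was PLEKHG2, which read 3682 in PANC1, 857 in SU86.86, 308 in HPAF1, 129 in L3.6 and 106 in HPDE. EID2, an inhibitor of differentiation that binds EP300, lay 2.49 above the mean in PANC1 and 1.20 in SU86.86, with 7509 and 3640 units against at most 1253 in the other lines. No other gene of the 19 reached a 2-fold difference above the mean in SU86.86, and PLEKHG2, at 0.97, came closest.

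Other neighbours were high in PANC1 and not in SU86.86. DLL3, a Notch ligand, read 3042 in PANC1 and 172 in SU86.86, its lowest line, with at most 349 elsewhere. Its differences were 3.39 and -1.21. EID2B, a relative of EID2, lay 2.96 higher in PANC1 and 0.26 in SU86.86. The zinc finger genes ZNF780A and ZNF546 lay 2.33 and 1.64 higher in PANC1, and TTC9B lay 1.96 higher (the 4 other lines read ZNF546 and TTC9B below the filter), with SU86.86 at 0.30, -0.41 and -0.46. The probe sets of DLL3, TTC9B, MAP3K10 and, on the flanks, NFKBIB and LTBP4 end in _x_at, a type that can match related transcripts. Those used for AKT2, PAF1, SUPT5H, FBL, TIMM50 and DYRK1B end in _s_at. Results without both types are given below. The smallest PANC1 differences were at LOC100129935 (-0.03), SYCN (-0.01) and FCGBP (-0.01). These genes read at most 166 in any line, close to the level filter, and so hold no measurable level to compare. RPS16, a ribosomal protein gene, read 34523 in PANC1 and 21710 in HPAF1, a difference of 0.48 in PANC1 and 0.20 in SU86.86. GMFG differed by 0.32 in SU86.86, where it read 162, near the filter. ZFP36, which targets messages for decay, did not follow the pattern: HPAF1 read highest at 5624 and L3.6 lowest at 589.

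The edges of the stretch differed between the lines. Beyond AKT2, 0 of the first 10 retained genes were at least 2-fold higher in PANC1 (5.38% of all genes). There 3 were at least 2-fold lower (5.54% of all), with a median of -0.25. In SU86.86, 5 of the same 10 were at least 2-fold higher (5.29% of all), with a median of 0.99. AKT2 itself lay 2.79 above the mean in PANC1, and the next retained gene, C19orf47, lay at -0.09. C19orf47 read only between 196 and 348 over the lines. Inside the stretch CCNP, the retained gene just before AKT2, likewise lay at 0.01 in PANC1. A value near 0 at such a gene does not place the edge. After it PLD3, a lysosomal nuclease, read 2013 in SU86.86, 1765 in HPDE, 991 in HPAF1, 460 in L3.6 and 445 in PANC1, so that HPDE was nearly as high as SU86.86. SERTAD1, a transcriptional coregulator, read 2885 in SU86.86, 911 in HPDE, 788 in HPAF1, 448 in PANC1 and 405 in L3.6. SHKBP1, an adaptor-binding protein, read 2814 in SU86.86 and at most 617 elsewhere. PANC1 was lowest for BLVRB, a biliverdin reductase, at 596 against at least 2031.

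On the PAK4 side both lines stayed high for several genes. Of the first 10 retained genes there, 4 were at least 2-fold higher in PANC1 (5.38% of all genes) and 4 in SU86.86 (5.29%). The medians were 0.84 and 0.75. FBXO17, an F-box protein, read 2145 in PANC1, 1821 in SU86.86, 382 in HPDE, 120 in L3.6 and 54.2 in HPAF1. MRPS12 of the mitochondrial ribosome read 9217 in PANC1 and 7675 in SU86.86, with at most 2791 elsewhere. NFKBIB, an inhibitor of NF-kappaB, read 4498 in PANC1 and 4052 in SU86.86, with at most 1631 elsewhere. SARS2, the mitochondrial seryl-tRNA synthetase, was higher in SU86.86 (1221) than in PANC1 (823). The farthest genes on that side, LGALS4 and CAPN12, did not share the order. LGALS4 was high in HPAF1 alone at 6641 and below the level filter in the other 4 lines, and CAPN12 read between 483 and 614 throughout. They do not mark an edge. The next retained genes further out, ACTN4 and EIF3K, lay 0.59 and 1.57 above the mean in PANC1. In SU86.86 they lay 1.24 and 0.195 above it.

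**Figure D3:**
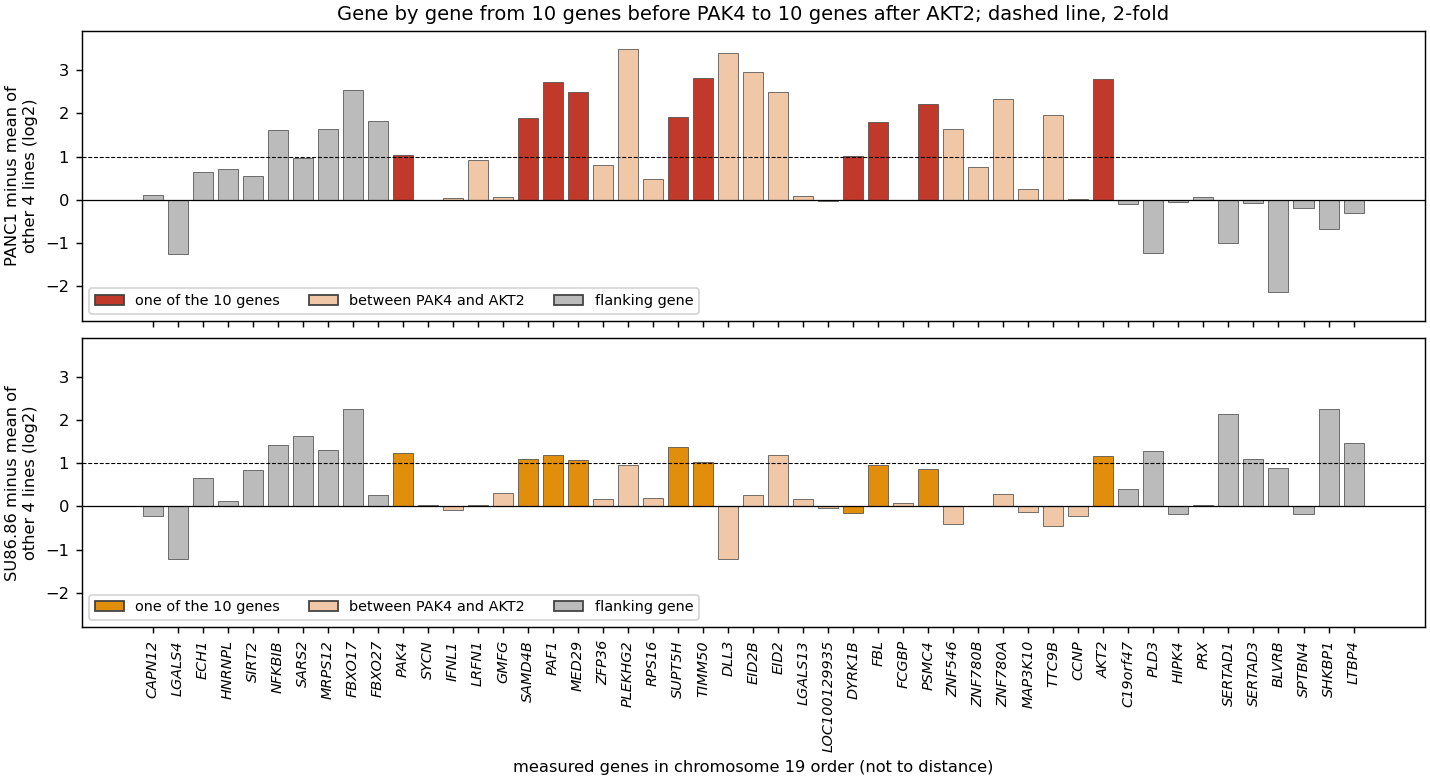
Bars give the difference of PANC1 (top) and SU86.86 (bottom) from the mean of the other 4 lines, in log2 units, for the 10 genes (strong colour), the 19 other retained genes between PAK4 and AKT2 (pale) and 10 flanking genes on each side (grey). PANC1 lies at 2.79 at AKT2 and at -0.09 at C19orf47, a gene that varied little over the lines. SU86.86 reaches 2.13 at SERTAD1 and 2.27 at SHKBP1 beyond AKT2.

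Along chromosome 19 the difference was summarised as the median in windows of 11 successive retained genes. The highest PANC1 window ran from SAMD4B to EID2, at 2.49, against a median of 0.01 over the 1065 windows of the chromosome, and it was also the highest of the 14625 windows of the genome for PANC1. In SU86.86 the highest windows on the chromosome were those from NFKBIB to SAMD4B and from AKT2 to LTBP4, both at 1.10, while its highest window in the genome lay on chromosome 4, at 2.23. The window from SAMD4B to EID2 was close to these in SU86.86, at 1.04. The 1026 retained genes of chromosome 19 outside the stretch and its flanks had medians of 0.01 in PANC1 and -0.10 in SU86.86, and 4.3% and 3.2% of them were at least 2-fold higher. The PANC1 window from SAMD4B to EID2 holds SAMD4B, PAF1, MED29, SUPT5H and TIMM50, so it restates in part what the genes were chosen on. Of the 10 genes, the SU86.86 windows at 1.10 hold only PAK4 and SAMD4B, and AKT2, with flanking genes and neighbours as the rest.

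**Figure D4:**
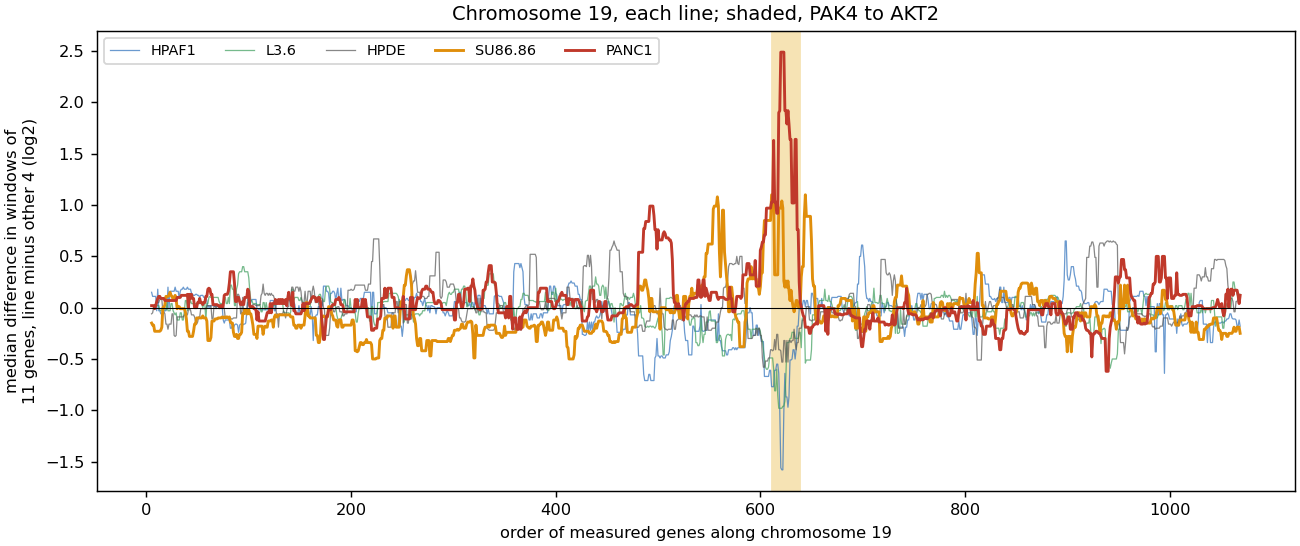
Median difference from the mean of the other 4 lines, in log2 units, in windows of 11 successive retained genes along chromosome 19, 1 line per cell line, with PAK4 to AKT2 shaded. PANC1 (red) peaks at 2.49 within the shaded stretch. SU86.86 (orange) reaches 1.10 at both of its edges and 1.04 in the window where PANC1 peaks.

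Genes of the same complexes and pathways, most of them on other chromosomes, were measured as a set that the choice of the 10 did not use. The lists were, however, drawn up with earlier results of these data known. Of 117 such partner genes retained, 0 passed limma in PANC1 and 0 in SU86.86, with Benjamini-Hochberg adjustment over all genes at a threshold of 0.05. In those lines 6 and 1 of the 117 had an unadjusted p under 0.05, against 828 and 557 of all 14894 genes. Over all genes limma called 0.0269% in PANC1 and 0% in SU86.86. In HPAF1, L3.6 and HPDE 0 partners passed as well, with 7, 2 and 14 at an unadjusted p under 0.05 against 1497, 502 and 1226 of all genes, and limma called 0.242%, 0% and 0.0269% of all genes. In PANC1 2 partners were at least 2-fold higher and 6 lower, where 5.38% and 5.54% of all genes were. In SU86.86 6 were higher and 2 lower, where 5.29% and 2.59% of all genes were. The partners' medians were 0.04 and 0.05. Only 3 residual degrees of freedom stand behind each test. A p that misses the threshold does not show equal levels.

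The 5 other subunits of the PAF complex had a median of 0.36 in PANC1 and 0.01 in SU86.86. RTF1 had a level of 10.55 in PANC1 and 9.22 in HPAF1, and SKIC8 of 11.50 and 10.60. CTR9, the scaffold of the complex, lay 0.83 above the mean in PANC1. SUPT4H1, the small subunit that pairs with SUPT5H, had its lowest level, 10.01, in PANC1, a difference of -0.76. Among 12 elongation genes ELL2 had the widest range, from 9.16 in L3.6 to 11.72 in HPDE, and CCNT1 was lowest in SU86.86 (9.13) and highest in HPDE (10.64).

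The 27 retained Mediator genes had a median of -0.13 in PANC1 and 0.09 in SU86.86. CCNC, the cyclin of the Mediator kinase module, and MED15 had levels of 12.60 and 10.70 in SU86.86, 1.27 and 1.16 above the mean, and both were below the mean in PANC1. The 14 genes of the proteasome's regulatory particle had medians of 0.26 and 0.24. PSMD3 and PSMD11 read highest in L3.6, at 12.17 and 12.81, and PSMD8, which also lies on chromosome 19, differed by 0.64 in PANC1 and 0.71 in SU86.86. The 9 genes of small nucleolar ribonucleoproteins and the nucleolus had medians of 0.24 and 0.15. RUVBL1, an ATPase of their assembly, ran from 10.77 in HPDE to 12.45 in PANC1, and ZNHIT3 from 10.10 in PANC1 to 11.84 in HPDE.

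Among 13 genes of mitochondrial protein import, TIMM21 and PAM16, which act at the same translocase as TIMM50, lay 1.73 and 1.03 above the mean in PANC1 (SE 0.51 and 0.22, limma adjusted p = 0.697 and 0.467). TOMM40, of the outer membrane, ran from 9.49 in HPAF1 to 11.15 in SU86.86. The 20 AKT signalling genes had a median of -0.24 in PANC1. There 3 were at least 2-fold lower (5.54% of all genes) and 0 higher (5.38%). AKT1, the closest relative of AKT2 in the list, had levels of 10.56 in PANC1 and 11.37 in SU86.86, differences of -0.23 and 0.78. FOXO1, a transcription factor that AKT kinases restrain, read 64.4 in PANC1, below the level filter, and from 260 to 495 in the other lines (limma adjusted p = 0.415). TRIB3 and PHLDA3, both inhibitors of AKT, were highest in HPDE at 13.75 and 11.40. Of the PAK list, PAK6 ran from 7.46 in PANC1 to 9.53 in HPDE and LIMK2 from 7.83 in HPAF1 to 10.90 in HPDE. Among the kinases related to DYRK1B, DYRK4 ran from 7.26 in L3.6 to 10.14 in HPDE and HIPK3 from 9.92 to 11.75 in the same lines. SAMD4A, the paralogue of SAMD4B, stood at 10.33 in SU86.86, 9.90 in PANC1 and 7.53 in L3.6. The PAK6 level in PANC1 and the DYRK4 and SAMD4A levels in L3.6 lay below the level filter, 7.72 on this scale.

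**Figure D5:**
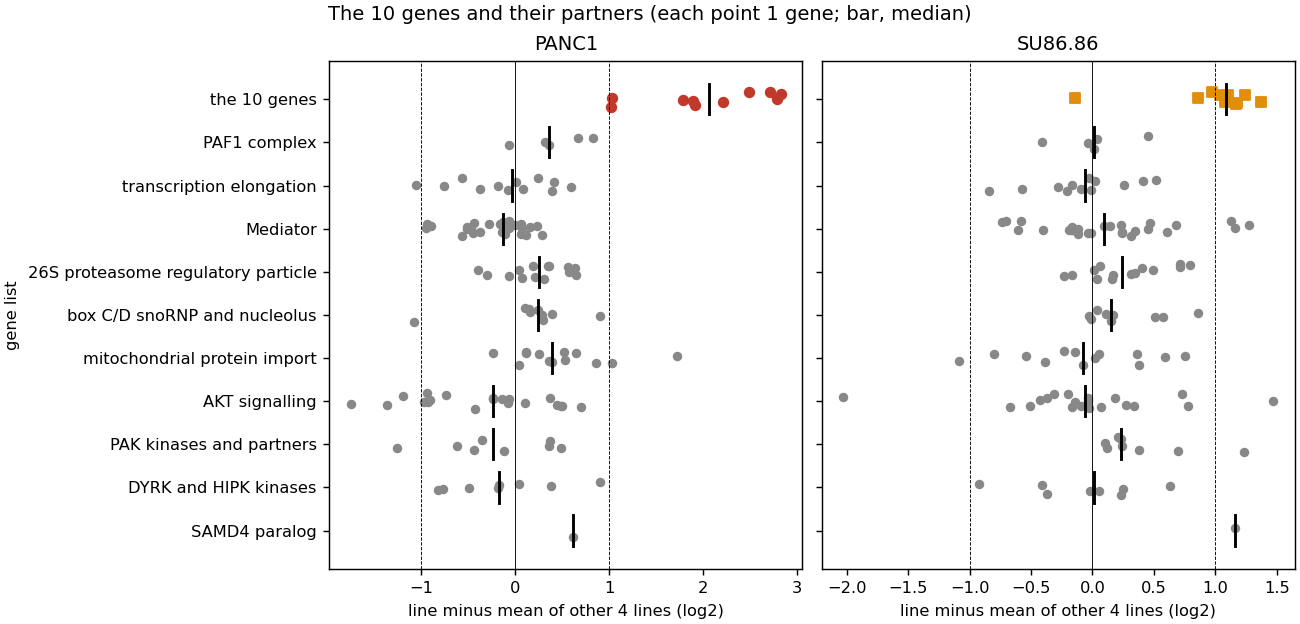
Difference from the mean of the other 4 lines, in log2 units, for the 10 genes (coloured) and the partner genes in 10 lists (grey), with PANC1 left and SU86.86 right; each point is a gene and each bar a median. The median is 2.06 for the 10 genes in PANC1 and between -0.24 and 0.62 for the lists.

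The mean profile of the 10 genes, centred per gene, was 1.66 in PANC1, 0.79 in SU86.86, -0.66 in L3.6, -0.68 in HPDE and -1.11 in HPAF1. The genes outside the stretch most like it over the 5 lines were KCNN3 (r = 0.998), GALNT18 (0.994), PDCD2L (0.993), TRAM2 (0.991), RFTN1 (0.989), LIN28B (0.989), NEXN (0.987) and DOCK4 (0.986). These are Pearson correlations over only 5 points that share 1 array each, chosen as the highest of 6302 genes, and they carry no p. PDCD2L alone of the 8 lies on chromosome 19, with levels of 11.46 in PANC1, 10.66 in SU86.86 and at most 9.92 elsewhere. KCNN3, RFTN1, LIN28B, NEXN and DOCK4 each read below the level filter in 3 lines. Each of the 10 genes correlated with the mean of the other 9 between 0.856 for DYRK1B and 0.996 for AKT2 and PAF1. The 10 were chosen on their levels in these same arrays, so nothing is read from these values.

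The arrays were alike in scale, with medians between 137.4 (SU86.86) and 143.2 (HPAF1). The 18 spike-in probe sets had a median standard deviation of 0.09 log2 units between arrays. Of 10 epithelial and duct markers, 8 to 10 were above the level filter in each line. CFTR was below it in every line but SU86.86, KRT7 in PANC1 and CA2 in L3.6, and the summed intensity of the list was lowest in PANC1 (24281) and highest in HPAF1 (106021). Acinar and endocrine markers with a probe set, 4 of 5, were below the filter in all lines. Leukocyte markers above it were 1 or 2 of 4, with CD3E above it in every line and CD14 in HPAF1 alone. Endothelial markers above it were 1 of 4, which was PECAM1 in every line. PTPRC, VWF and CDH5 were below it in all lines. Of 6 fibroblast markers 2 to 4 were above it, COL1A1 and DCN among them in every line. Their summed intensity was lowest in SU86.86 (1486) and highest in L3.6 (2832). The part of these markers in the levels of the 10 genes was not tested.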

How the data were processed

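Total RNA from 5 cell lines was labelled with biotin and hybridised to 1-colour Affymetrix expression arrays, 1 array per line, per the labels' protocols. The authors deposited linear intensity values for 54675 probe sets. The sources used here do not give how these deposited intensities were summarised, scaled or background-corrected. No further normalization was applied. The number of arrays limits the precision. Values were transformed as log2(intensity + 71.1), the constant being the 25th percentile. Of the probe sets, 41091 carried 1 gene symbol in the platform annotation and 41037 of these were matched to RefSeq by gene identifier; 1801 with several symbols, 11721 unlisted and 62 controls were left out. The 19775 genes are represented by their brightest probe set on average. Retained were those that reached 140.3 units, the median over all probe sets and lines, in at least 1 line. Partner genes were tested with limma 3.58.1 in R 4.3.3, each line against the other 4, two-sided, with Benjamini-Hochberg adjustment over 14894 genes; p-values measure the spread between different lines, and the lone line is assumed to vary as the others do. The 10 genes, the partner lists and the markers were chosen with earlier results of these data known. The named neighbours are the 6 highest and 2 lowest differences in PANC1 and SU86.86, the flanks the first 10 genes on each side, partners the 2 widest per list, and like genes the 8 highest correlations. Named in addition, after their values were seen, were ZFP36, ZNF546, CTR9, SUPT4H1, PSMD8, PAM16, AKT1 and FOXO1. Also named outside these rules were FCGBP, ZNF780B, MAP3K10, CCNP, ACTN4 and EIF3K. Alternatives covered the constant, quantile normalization, the level filter, the choice of probe set, the reference and each line left out. Gene order follows the RefSeq table, whose genes on alternate scaffolds (such as KIR2DL2) are placed by their scaffold position and fall at the start of chromosome 19. The promoter windows hold 250 bases upstream of each start.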

Additional observations from a re-analysis of the deposited data

How the results depend on the processing

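Under every alternative run, all PANC1 differences of the 10 genes were above 0 (106 of 106 values) and 99 were at least 2-fold; for SU86.86, 98 of 106 were above 0 and 60 at least 2-fold. The negative ones were all at DYRK1B. The cause of the shifts below was not tested. Apart from HPDE alone as the reference, shares of all genes under the alternatives are not given, and nothing is read from these counts. Without probe sets ending in _s_at or _x_at, 6 of the 10 genes remain measured, of which 6 in PANC1 and 4 in SU86.86 were at least 2-fold higher, and 4 of 17 neighbours were in PANC1; the median of the 10 genes was -1.29 in HPAF1 and -0.47 in HPDE. When a gene's probe sets were averaged, 3 of the 10 were at least 2-fold higher in SU86.86, and medians were 1.86 in PANC1, 0.88 in SU86.86, -1.12 in HPAF1 and -0.62 in HPDE. Without the added constant the HPAF1 median was -1.74. With HPDE alone as the reference, medians were 2.40 in PANC1, 1.70 in SU86.86, -0.62 in HPAF1 and -0.09 in L3.6, 1 gene was higher in L3.6, and 3 neighbours were higher in SU86.86. Leaving out 1 other line gave 8 to 10 genes at least 2-fold higher in PANC1 and 2 to 9 in SU86.86. It gave medians of 1.89 to 2.50 in PANC1, 0.75 to 1.75 in SU86.86, -1.94 to -1.11 in HPAF1, -1.45 to -0.44 in L3.6 and -1.25 to -0.29 in HPDE. Neighbours at least 2-fold higher then numbered 7 to 8 in PANC1, 0 to 3 in SU86.86 and 0 to 1 in HPAF1 and HPDE. The count of partners past limma was 0 under every alternative run. No paired analysis was possible because each line has 1 array and the labels give no replicate numbers.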

Other observations

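Other stretches of chromosome 19 stood above the other lines in windows of 11 successive retained genes, taken where the median reached 0.75, a limit chosen after the values were seen. In PANC1 the windows from VSTM2B-DT to LOC100996681 reached 0.99 between TSHZ3 and GPATCH1. In SU86.86 the windows from APLP1 to ZFP82 reached 1.08 between SDHAF1 and ZNF146. Both stretches lie on the PAK4 side of the 10 genes, and neither reached the limit in the other of these lines. Of the 6302 genes compared with the mean profile of the 10, 74 correlated at 0.95 or more over the 5 lines, and 11 of these were on chromosome 19, which held 345 of the genes compared. Only genes from PAK4 to AKT2 were left out of that comparison, so the 11 can include flanking genes already described.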
